A study of Mus musculus with 18 samples.

Results

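Mos, Wee2, Fbxo43, Gpr3, Cdc25b and Aurkc are 6 genes known for holding the mammalian oocyte in meiotic arrest or for carrying it through maturation. They were taken by gene symbol, and all 6 were found once among the 30172 symbols of each ovary library. RNA had been sequenced from whole ovaries of wild-type C57BL/6J F1 females whose dams ate normal chow (F1-Control) or a diet with 3% methionine to raise homocysteine (F1-HHcy). The dams began the diet 4 weeks before mating according to the labels, a span that the study's methods give differently, and kept it through gestation and lactation, while the pups were not treated themselves. Ovaries were collected at postnatal day 3 (Pd3), Pd7 and Pd21, which gave 6 groups of 3 libraries and 18 libraries in all. Whether the 3 libraries of a group came from separate pups or dams is not given, so the p-values below measure the spread between libraries, which may be technical in part.

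Mouse oocytes enter the first meiotic prophase before birth and then stop there, and they stay stopped while the follicle around them forms and grows. Cyclic AMP made downstream of a receptor in the oocyte membrane keeps protein kinase A active, and this keeps the kinase CDK1 under inhibitory phosphorylation. At ovulation the brake is lifted, CDK1 is activated by CDC25 phosphatases, and a second stop at metaphase of meiosis II is held by the MOS kinase pathway and by an inhibitor of the anaphase-promoting complex until fertilization. Growing oocytes store messenger RNAs for these later steps, so the transcripts can be present long before the proteins act. In RNA of a whole ovary, fewer oocytes and less RNA per oocyte cannot be told apart.

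All 6 genes have a place in the GENCODE M21 annotation of the mouse genome (GRCm38), the build named in the submitters' processing notes. Mos lies on chromosome 4 from 3870657 to 3872105 as a single exon, and Gpr3 lies on the same chromosome from 133209340 to 133212536. Wee2 spans 40439088 to 40466813 on chromosome 6, Fbxo43 spans 36150060 to 36164884 on chromosome 15, Cdc25b spans 131186949 to 131198497 on chromosome 2, and Aurkc spans 6995300 to 7003091 on chromosome 7. On the opposite strand, Cd164l2 shares 204 of the 2734 exonic bases of Gpr3, and Spef1 shares 92 of the 3728 exonic bases of Cdc25b. The library kit keeps the strand, but whether the counting used it is not given in the sources used here, so reads in these shared bases could not be assigned to 1 strand with certainty.

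The promoters of Wee2 and Aurkc are shown because both genes were higher in F1-HHcy ovaries at Pd3 and because oocyte transcription factors with known binding motifs act in these cells. Each stretch holds 250 bases before and 50 bases after the start of transcription and comes from RefSeq on GRCm38.p6, chr6:40442613-40442912 on the plus strand for Wee2 and chr7:6995135-6995434 on the plus strand for Aurkc. The GENCODE spans of both genes begin before these RefSeq starts, at 40439088 for Wee2, outside the stretch shown, and at 6995300 for Aurkc, within it. Sequence around the earlier Wee2 start was not searched. RefSeq sequence was at hand for 4 of the 6 genes, Wee2, Aurkc, Gpr3 and Cdc25b. Capitals mark the letters CANNTG, the E-box bound by factors of the FIGLA and SOHLH1 class, and TAATTG or TAATTA, bound by NOBOX-like homeodomain proteins, searched on both strands; no match overlaps another.
Wee2: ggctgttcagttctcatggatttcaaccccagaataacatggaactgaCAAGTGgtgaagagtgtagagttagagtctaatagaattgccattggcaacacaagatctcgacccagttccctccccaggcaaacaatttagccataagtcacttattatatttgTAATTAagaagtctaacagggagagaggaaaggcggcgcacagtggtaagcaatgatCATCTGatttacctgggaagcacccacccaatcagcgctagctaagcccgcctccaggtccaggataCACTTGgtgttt
Aurkc: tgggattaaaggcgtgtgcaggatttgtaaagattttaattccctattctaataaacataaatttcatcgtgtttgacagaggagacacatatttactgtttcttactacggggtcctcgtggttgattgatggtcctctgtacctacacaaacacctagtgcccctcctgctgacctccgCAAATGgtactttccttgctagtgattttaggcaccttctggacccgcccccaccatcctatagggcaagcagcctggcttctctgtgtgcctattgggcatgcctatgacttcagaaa
The Wee2 promoter held 3 E-box matches, beginning at -202, -29 and 39 relative to the first transcribed base, and 1 TAATTA match beginning at -86. The Aurkc promoter held 1 E-box match, at -69, and neither homeodomain motif. Cdc25b held 1 E-box match, at 35, and Gpr3 held none. Of 28059 promoters of this length belonging to genes in the files, 71.0% held at least 1 E-box match, 4.65% held TAATTA and 7.06% held TAATTG, so an E-box match by itself is common.

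Near the ends of some stored oocyte transcripts lies a cytoplasmic polyadenylation element, the binding site of CPEB proteins, which govern when a stored RNA is translated. The last 100 bases of the longest principal GENCODE transcript of each gene were searched for TTTTAT and TTTTAAT, which do not overlap here. Matches were found in Wee2, with 1 of each form, and in Aurkc, with 1 TTTTAT, and none was found in these windows of Mos, Fbxo43, Gpr3 or Cdc25b. Among 16941 coding genes with a 3′ untranslated region at least this long, 18.2% held a match, and 12.9% held one ahead of an AATAAA or ATTAAA polyadenylation signal. The sites that precede such a signal are shown with the element in capitals, chr6:40466764-40466793 for Wee2, 13 bases before AATAAA, and chr7:7003044-7003073 for Aurkc, 12 bases before ATTAAA, both on the plus strand.
Wee2: cataTTTTAATccagatcattgtaaataaa
Aurkc: tctcTTTTATgaagtgatgttaattaaaac

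Between 33630642 and 39399282 fragments per library had been counted on genes, and values are FPKM (fragments divided by gene length in kilobases and by library depth), which allow levels of different genes to be compared. Recovered fragment numbers of the 6 genes ran from 57 for Gpr3 to 3978 for Wee2 in a library. Over all 18 libraries Mos had the highest mean level of the 6, at 28.2 FPKM. Diets were compared at each day with limma on log2(FPKM + 1), after genes that reached 1 FPKM in fewer than 3 libraries of that day had been removed. The word called is used of genes whose log2 fold change lay beyond 0.58 in size while the unadjusted p was below 0.05, and the adjusted p (Benjamini-Hochberg, over every gene tested on the day) is given beside it. All 6 genes passed the filter on each day. The added 1 shrinks log2 fold changes of genes near 1 FPKM, which here are Fbxo43, Gpr3 and, in F1-Control at Pd3, Aurkc.

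One library stood apart. F1-HHcy Pd3 replicate 3 lay near the F1-Control libraries of that day in 6 markers of oocytes in primordial follicles. These were Ddx4, Dazl, Sohlh1, Lhx8, Figla and Nobox, and their summed level in it was 324 FPKM. The other two F1-HHcy libraries of that day had 116 and 202 FPKM, and F1-Control libraries had 335 to 360 FPKM. F1-HHcy replicate 3 did not lie near F1-Control in all markers. Its 8 markers of growing oocytes, named below, summed to 1737 FPKM. The other F1-HHcy libraries of that day had 1949 and 2496 FPKM, and F1-Control libraries had 884 to 1385 FPKM. Erythroid markers summed to 780 to 1108 FPKM in F1-HHcy and to 3914 to 11214 FPKM in F1-Control libraries. The diet differences of the 6 genes at Pd3, their levels relative to oocyte markers and the counts of list genes called are given also without F1-HHcy replicate 3. F1-HHcy then has 2 libraries at Pd3. Leaving out each library in turn was planned for the 6 genes. Setting F1-HHcy replicate 3 apart was chosen after seeing the data, as were the relative levels and the list counts without it. None of the 6 primordial oocyte markers, 8 growing oocyte markers (Gdf9, Bmp15, Zp1, Zp2, Zp3, Oosp1, Nlrp5 and Padi6) and 6 granulosa markers was listed at 0 in any library. A level above 0 cannot show that the samples held ovary tissue alone. Ovgp1, an oviduct marker, had 37.5 to 365 FPKM in F1-Control and 0.370 to 2.10 FPKM in F1-HHcy libraries at Pd21.

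At Pd3, Mos, Aurkc and Wee2 were higher in ovaries of F1-HHcy than of F1-Control females, and none of the 6 genes was called lower. Mean FPKM was 5.09-fold higher for Mos and 5.19-fold higher for Aurkc, and the groups of both did not overlap. That is 3 of 6 genes called higher, beside 5% of the 13277 genes tested at Pd3 (4.74% were called lower), and the median log2 fold change was 0.40 for the 6 genes and -0.03 for all genes tested. The 6 genes were chosen with earlier results of these data known, so this share is a description. None of the 6 had an adjusted p under 0.05, whereas 1.58% of genes were called higher with the adjusted p in place of the unadjusted one.

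Both of these statements on the adjusted p rest on single libraries. Without F1-HHcy replicate 3 the same 3 genes were called higher, beside 7.05% of 13049 genes higher and 7.88% lower, and Mos, Aurkc, Wee2 and Cdc25b had adjusted p-values from limma of 0.000269, 0.000403, 0.00416 and 0.0446. For each of these genes, F1-HHcy replicate 3 was the F1-HHcy library nearest to F1-Control, and it was singled out after seeing the data. Leaving it out widens the difference, so these p-values are given as a description. Over all genes tested, the number with an adjusted p under 0.05 was 408 with all 6 libraries and 2824 without F1-HHcy replicate 3. It was 0, 1 and 53 without F1-Control replicate 1, 2 and 3, and 84 without either F1-HHcy replicate 1 or F1-HHcy replicate 2.

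Mos encodes a serine/threonine kinase that starts the MAP kinase cascade in maturing oocytes and is needed for the stop at metaphase II. In F1-Control ovaries at Pd3 it had 3.10, 3.22 and 4.58 FPKM, and in F1-HHcy ovaries 27.4, 21.1 and 7.07 FPKM. All 3 F1-HHcy libraries lay above all F1-Control libraries, with replicate 3 closest to them. The log2 fold change was 1.90 (SE 0.43), with an unadjusted p of 0.00250 and an adjusted p of 0.0601 from limma. Without F1-HHcy replicate 3 it was 2.45.

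Aurkc encodes the Aurora kinase of meiotic germ cells, which corrects faulty attachments of chromosomes to the spindle. It had 1.44, 1.47 and 2.20 FPKM in F1-Control and 13.1, 10.1 and 3.28 FPKM in F1-HHcy ovaries at Pd3. The order of the libraries was the one seen for Mos, with F1-HHcy replicate 3 lowest of its group and still above every F1-Control library. The log2 fold change was 1.71 (SE 0.41), with an unadjusted p of 0.00356 and an adjusted p of 0.0668 from limma, and it was 2.22 without that library.

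Wee2, the oocyte form of the kinase that puts the inhibitory phosphate on CDK1, had 6.63, 6.94 and 8.29 FPKM in F1-Control and 14.4, 13.7 and 8.22 FPKM in F1-HHcy ovaries at Pd3. F1-HHcy replicate 3 lay just below F1-Control replicate 3, so the groups overlapped. The log2 fold change of 0.63 (SE 0.21) was close to the threshold, with an unadjusted p of 0.0174 and an adjusted p of 0.136 from limma. It was 0.87 without F1-HHcy replicate 3, whereas the call was lost, at 0.50 to 0.60, when F1-HHcy replicate 1, F1-HHcy replicate 2, F1-Control replicate 1 or F1-Control replicate 2 was left out.

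Cdc25b encodes a phosphatase that removes the inhibitory phosphate and activates CDK1, and the oocyte needs it to resume meiosis. In RNA of whole ovaries, how much of its transcript came from oocytes cannot be told. The level of Cdc25b was 18.8, 19.2 and 15.1 FPKM in F1-Control and 12.7, 12.7 and 14.9 FPKM in F1-HHcy ovaries at Pd3. All F1-HHcy libraries lay below all F1-Control libraries, as did 16.1% of all genes tested, but the log2 fold change of -0.37 (SE 0.13) was smaller than the threshold and Cdc25b was not called. Its unadjusted p was 0.0238 and its adjusted p 0.158 from limma. The log2 fold change was -0.44 without F1-HHcy replicate 3, still under the threshold. Mos, Aurkc and Cdc25b were the members without overlap between the diets at Pd3, 2 of them higher, beside 11.8% of all genes tested that were higher without overlap.

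Fbxo43 encodes EMI2, the inhibitor of the anaphase-promoting complex that keeps the egg at metaphase II. It had 1.01, 1.05 and 1.34 FPKM in F1-Control and 1.53, 1.32 and 1.30 FPKM in F1-HHcy ovaries at Pd3, and the groups overlapped. The log2 fold change was 0.16, with a 95% interval from -0.17 to 0.49, and it was 0.19 without F1-HHcy replicate 3. Gpr3 encodes the receptor whose constant activity keeps cyclic AMP high in the arrested oocyte. It had 1.34, 1.22 and 1.53 FPKM in F1-Control and 1.12, 0.781 and 1.57 FPKM in F1-HHcy ovaries, with a log2 fold change of -0.15 and a 95% interval from -0.55 to 0.26. Without F1-HHcy replicate 3 it was -0.28, and the receptor gene at the head of the arrest pathway was called with neither set of libraries.

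**Figure D1:**
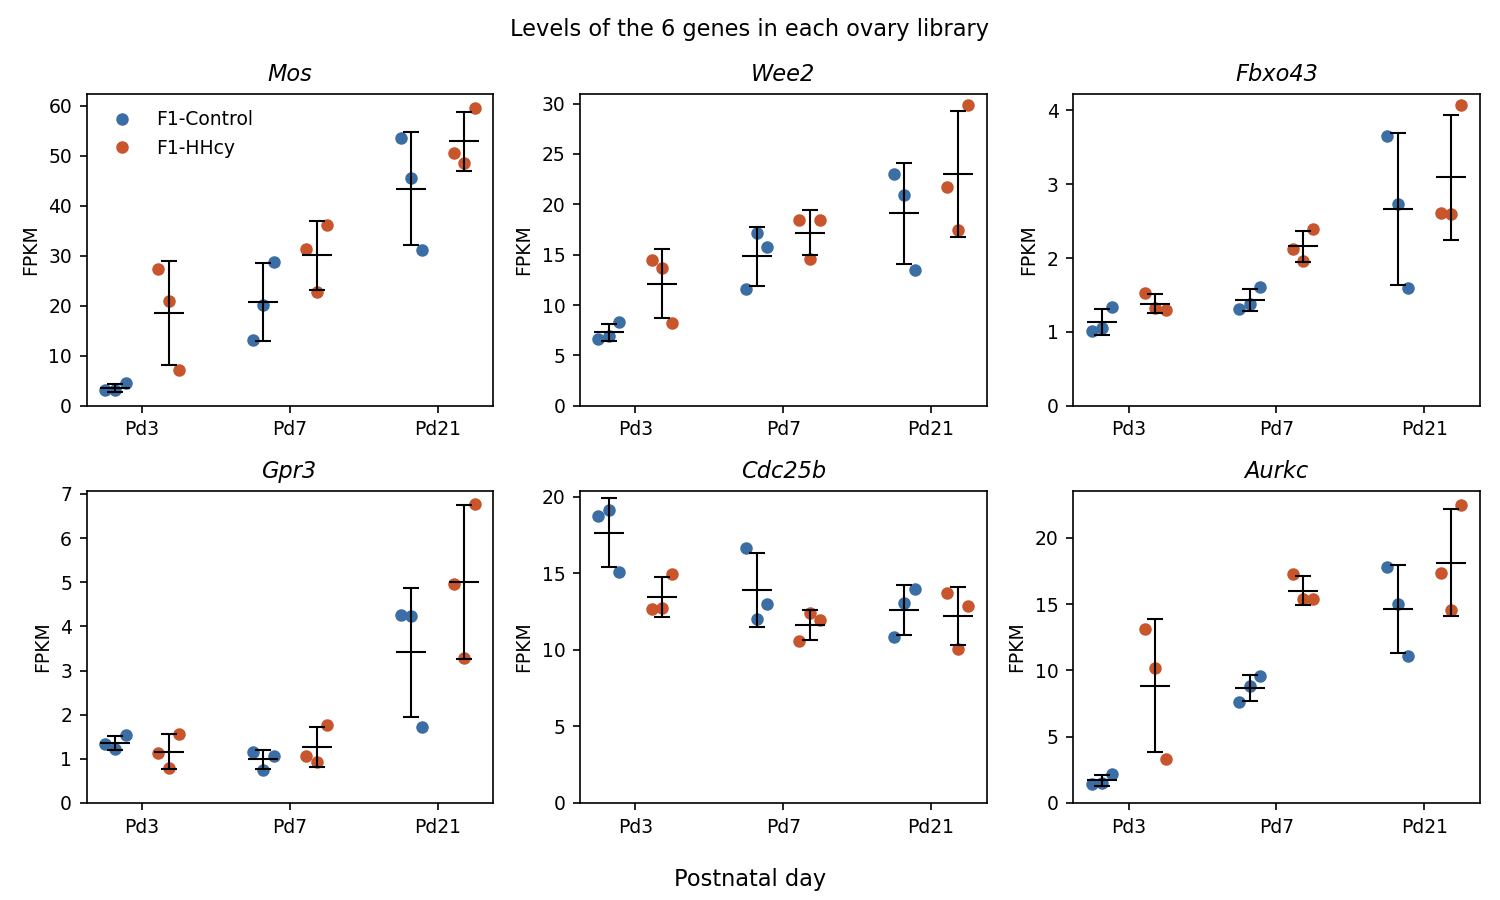
FPKM of Mos, Wee2, Fbxo43, Gpr3, Cdc25b and Aurkc (y axes from 0) in each of the 18 ovary libraries, by postnatal day (x axes) and diet of the dam. Points are libraries in the order of their replicate numbers, the horizontal line is the mean and the bars are the SD (n = 3); at Pd3 the Mos and Aurkc points of F1-HHcy lie above those of F1-Control, with replicate 3 lowest.

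At Pd7, Aurkc was higher in F1-HHcy ovaries, and it was the member called at that day. Its F1-Control libraries had 7.63, 8.81 and 9.56 FPKM and its F1-HHcy libraries 17.3, 15.4 and 15.4 FPKM. The groups lay far apart compared with the spread within them. The log2 fold change was 0.82 (SE 0.14), with an adjusted p of 0.00824 from limma, and it lay between 0.74 and 0.88 whichever library was left out. One of 6 genes was therefore called higher and none lower, beside 9.06% of 13299 genes called higher and 7.35% called lower, and 5.64% were called higher with the adjusted p, as Aurkc was.

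Fbxo43 had 1.32, 1.38 and 1.61 FPKM in F1-Control and 2.12, 1.96 and 2.39 FPKM in F1-HHcy ovaries at Pd7. The groups did not overlap, as was also so in this direction for 19.5% of all genes tested, but the log2 fold change of 0.38 (SE 0.15) was under the threshold, with an unadjusted p of 0.0290 and an adjusted p of 0.118. With limma-voom on the recovered fragments, where no 1 is added, it was 0.59 and passed the threshold with an unadjusted p of 0.0175.

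Mos had 13.1, 20.2 and 28.7 FPKM in F1-Control and 31.3, 22.7 and 36.2 FPKM in F1-HHcy ovaries at Pd7. The groups overlapped, since F1-HHcy replicate 2 lay below F1-Control replicate 3, and the log2 fold change of 0.56 (SE 0.26) was not called, with an unadjusted p of 0.0597 and an adjusted p of 0.176. It was called, at 0.82 and 0.74, when F1-Control replicate 3 or F1-HHcy replicate 2 was left out. Wee2 had 11.6, 17.2 and 15.7 FPKM in F1-Control and 18.5, 14.6 and 18.4 FPKM in F1-HHcy ovaries, with a log2 fold change of 0.21 and a 95% interval from -0.18 to 0.60.

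Gpr3 at Pd7 ranged from 0.752 to 1.16 FPKM in F1-Control and from 0.930 to 1.78 FPKM in F1-HHcy ovaries, and its log2 fold change was 0.17 with a 95% interval from -0.24 to 0.58. Cdc25b ranged from 12.0 to 16.7 and from 10.5 to 12.4 FPKM, and its log2 fold change was -0.23 with a 95% interval from -0.58 to 0.12. For both genes the groups overlapped and the interval held 0.

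At Pd21 none of the 6 genes was called, beside 0.0824% of 13350 genes called higher and 5.06% called lower, and the groups overlapped for all 6, beside 1.92% of genes higher and 8.61% lower without overlap. Adjusted p-values from limma were 1.00 for each, and unadjusted p-values ran from 0.173 for Mos to 0.784 for Cdc25b. Mos had 53.6, 45.5 and 31.2 FPKM in F1-Control and 50.6, 48.5 and 59.6 FPKM in F1-HHcy ovaries. Aurkc had 17.8, 15.0 and 11.1 FPKM in F1-Control and 17.3, 14.6 and 22.5 FPKM in F1-HHcy ovaries. The 95% intervals reached from -0.16 to 0.78 for Mos and from -0.20 to 0.78 for Aurkc, so differences of up to the upper end of these intervals remained possible at this number of libraries.

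**Figure D2:**
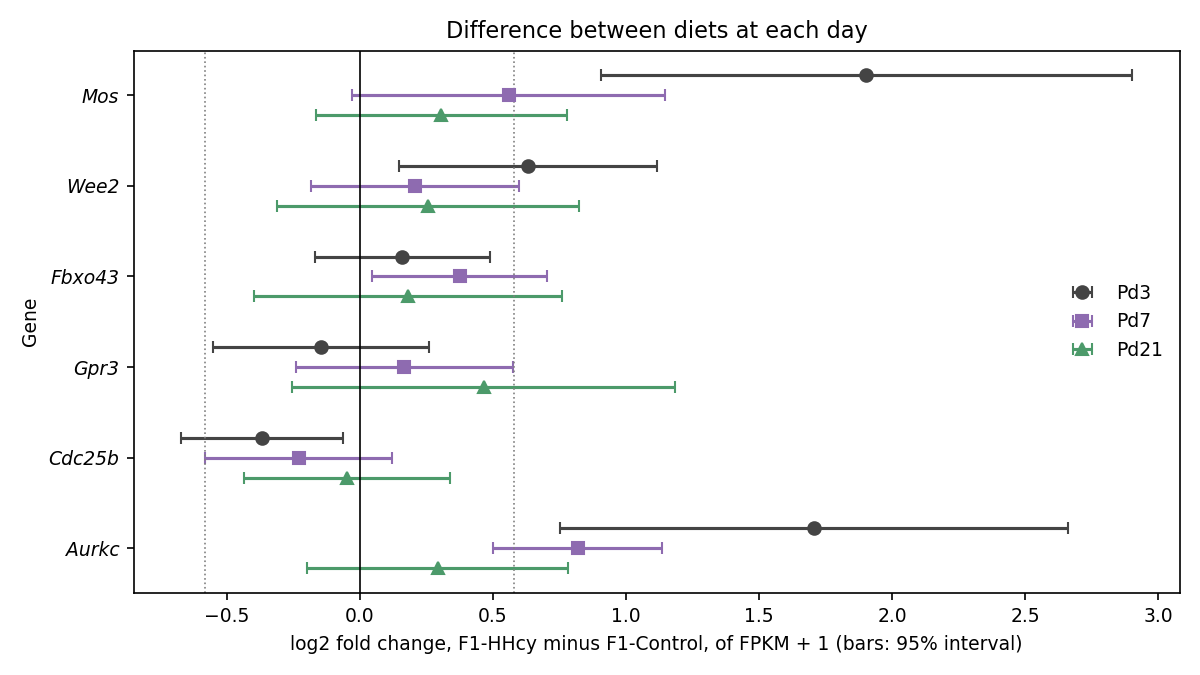
Difference between diets as log2 fold change of FPKM + 1, F1-HHcy minus F1-Control (x axis), for the 6 genes (y axis) at Pd3, Pd7 and Pd21, with 95% intervals as bars and the fold threshold of 0.58 as dotted lines. Mos and Aurkc lie at 1.90 and 1.71 at Pd3, and at Pd21 all 6 intervals hold 0.

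Whether the difference between diets changed with age was tested in 1 limma model of the 6 groups. From Pd3 to Pd7 the log2 fold change between diets was smaller by 1.34 for Mos, an interaction of -1.34 (SE 0.51) with an unadjusted p of 0.0181 and an adjusted p of 0.279. For Aurkc the interaction was -0.89 (SE 0.44), with an adjusted p of 0.377. Neither passed an adjusted p of 0.05, as was so for all 6 members, beside 0.411% of 14607 genes that passed. Without F1-HHcy Pd3 replicate 3, the interactions of Mos (-1.89) and Aurkc (-1.41) both passed, so this count rests on that library. From Pd7 to Pd21 no member had an interaction with an adjusted p under 0.05, beside 3.89% of genes, and batch differs between those days.

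Levels also differed with age within each diet. From Pd3 to Pd7 in F1-Control ovaries, Mos rose by 2.18 (SE 0.36) on the log2 scale, Aurkc by 1.84 (SE 0.31) and Wee2 by 0.92 (SE 0.23), with adjusted p-values from limma of 0.00189, 0.00194 and 0.0208. For each of these genes the Pd7 libraries lay above all Pd3 libraries, as did 16.6% of all genes. These 3 of 6 genes called higher stand beside 6.76% of 14607 genes, and none of the 6 was called lower, beside 6.89%. Gpr3 (-0.25), Cdc25b (-0.33) and Fbxo43 (0.19) were not called.

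In F1-HHcy ovaries from Pd3 to Pd7, Aurkc rose by 0.96 (SE 0.31) and Mos by 0.83 (SE 0.36), with adjusted p-values of 0.0757 and 0.177, beside 5.76% of genes called higher. Without F1-HHcy Pd3 replicate 3 they were 0.44 and 0.29 and neither was called, so both calls rest on that library. Wee2 (0.50) and Fbxo43 (0.41) were not called in F1-HHcy ovaries over these days. The comparison of diets at Pd3 and the comparison of days in F1-Control share the F1-Control Pd3 libraries, and their log2 fold changes stand at 1.90 and 2.18 for Mos, 1.71 and 1.84 for Aurkc, and 0.63 and 0.92 for Wee2.

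Pd3 and Pd7 libraries carry the batch label 1 and Pd21 libraries the batch label 2, so age and batch cannot be told apart after Pd7. From Pd7 to Pd21 Gpr3 rose in both diets, by 1.09 (SE 0.25, adjusted p = 0.00432) in F1-Control and by 1.39 (SE 0.25, adjusted p = 0.00306) in F1-HHcy ovaries. Its level at Pd21 was 4.27, 4.24 and 1.73 FPKM in F1-Control and 4.96, 3.28 and 6.77 FPKM in F1-HHcy libraries, each above the highest Pd7 value of its own diet, which was 1.16 FPKM in F1-Control and 1.78 FPKM in F1-HHcy. Gpr3 was thus called in both diets over the later interval and in neither over the earlier one.

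Mos rose by 1.07 (adjusted p = 0.0349) in F1-Control and by 0.81 (adjusted p = 0.12) in F1-HHcy ovaries from Pd7 to Pd21. The F1-Control call was lost without F1-Control Pd7 replicate 1 (0.79), and the F1-HHcy call without any of 5 libraries of F1-HHcy (0.63 to 0.87), all except Pd7 replicate 3. Aurkc rose by 0.67 (adjusted p = 0.110) in F1-Control, a call lost without any of 5 libraries of F1-Control (0.53 to 0.74), all except Pd21 replicate 3, and under median-ratio scaling (0.65), while its change in F1-HHcy ovaries was 0.15. Fbxo43 changed by 0.55 in F1-Control, under the fold threshold, with an adjusted p of 0.0340. The members called higher from Pd7 to Pd21 were 3 of 6 in F1-Control, beside 14.5% of genes, and 2 of 6 in F1-HHcy, beside 8.22%.

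Ordered by mean level, Mos was lowest in F1-Control at Pd3 (3.63 ± 0.824 FPKM, SD, n = 3), followed by F1-HHcy at Pd3 (18.5 ± 10.4), F1-Control at Pd7 (20.7 ± 7.82), F1-HHcy at Pd7 (30.1 ± 6.82), F1-Control at Pd21 (43.5 ± 11.4) and F1-HHcy at Pd21 (52.9 ± 5.91). Only the first step in this order was free of overlap between neighbours. Aurkc likewise had its lowest level in F1-Control at Pd3 (1.71 ± 0.428 FPKM) and no overlap with the next group, F1-Control at Pd7 (8.67 ± 0.971), which overlapped F1-HHcy at Pd3 (8.84 ± 5.04). For Wee2 every pair of neighbours overlapped, from 7.28 ± 0.881 FPKM in F1-Control at Pd3 to 23.0 ± 6.28 in F1-HHcy at Pd21. Cdc25b had its highest mean, 17.7 ± 2.25 FPKM, in F1-Control at Pd3 and its lowest, 11.6 ± 0.960, in F1-HHcy at Pd7, and all neighbours overlapped.

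Markers of oocytes and of other cells moved with the diet on the same days. The marker lists were chosen with earlier results of these data known, so their counts are descriptions. At Pd3, 6 of the 8 growing oocyte markers were called higher and none lower, with summed levels of 884 to 1385 FPKM in F1-Control and 1737 to 2496 in F1-HHcy. The log2 fold changes were 1.85 for Gdf9 (SE 0.34, adjusted p = 0.0388), a growth factor secreted by the oocyte, and 1.15 for Zp3 (SE 0.24, adjusted p = 0.0486), a protein of the zona pellucida. Of the 6 primordial oocyte markers 3 were called lower, among them Sohlh1 at -1.27 (adjusted p = 0.122), whereas Ddx4, a germ cell RNA helicase, was at -0.56 and not called. Of granulosa markers 4 of the 5 tested were called higher, with sums of 100 to 103 FPKM in F1-Control and 160 to 447 in F1-HHcy, and all 6 erythroid markers were called lower, with sums of 3914 to 11214 and 780 to 1108 FPKM. Theca and stroma markers (3 of 5 tested) and endothelial markers (3 of 5) were also called higher, surface and oviduct epithelium markers lower (2 of 6), and none of the 5 immune and 4 multiciliated cell markers tested was called. Without F1-HHcy replicate 3, all 6 primordial oocyte markers were called lower, 4 of 5 theca and stroma and 4 of 5 endothelial markers higher and 3 of 6 epithelium markers lower, while 6 of 8 growing oocyte, 4 of 5 granulosa and 6 of 6 erythroid markers were called as before in number. F1-HHcy replicate 3 had been set apart by these same 6 primordial oocyte markers, so their count without it is not a separate result. The part of all these markers in the differences of Mos, Aurkc and Wee2 was not tested.

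At Pd7 all 6 primordial oocyte markers were called lower in F1-HHcy, with sums of 160 to 299 FPKM in F1-Control and 65.4 to 91.5 in F1-HHcy, Sohlh1 at -2.66 (adjusted p = 0.00121) and Ddx4 at -1.16 (adjusted p = 0.00382). The growing oocyte markers were divided, with 2 called higher and 4 lower, among them Zp3 at -0.99 (adjusted p = 0.0526), while Gdf9 was at 0.24 and not called. The 2 called higher were Bmp15 and Oosp1, and the 4 called lower were Zp2, Zp3, Nlrp5 and Padi6. Aurkc was called higher on the same day. Granulosa markers were called higher in 5 of 6 cases and erythroid markers lower in all 5 tested. Of theca and stroma markers 3 of 6 and of endothelial markers 1 of 5 were called higher, 3 of 5 immune markers lower, and surface and oviduct epithelium markers were called lower in 4 of 6 cases and higher in 1, with none of the 4 multiciliated cell markers tested called. The part of these markers in the difference of Aurkc was not tested. At Pd21 none of the 14 oocyte markers was called, while all 6 multiciliated cell markers and 5 of 6 markers of surface and oviduct epithelium were called lower.

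Levels relative to the oocyte markers were computed as the log2 level of a gene minus the mean log2 level of a marker list in the same library, and they are given as a description without a test. Relative to growing oocyte markers at Pd3, Mos differed between the diets by 0.39 and Aurkc by 0.20, with overlap of the groups. Both overlaps came from F1-HHcy replicate 3, and without it Mos (0.61) and Aurkc (0.39) were higher in F1-HHcy with no overlap. Wee2 (-0.88), Fbxo43 (-1.35), Gpr3 (-1.66) and Cdc25b (-1.88) were lower in F1-HHcy without overlap on that scale. The last 4 differences were -0.97, -1.65, -2.12 and -2.28 without F1-HHcy replicate 3, again with no overlap. The mean log2 level of the growing oocyte markers was itself 5.70 in F1-Control and 7.21 in F1-HHcy at Pd3. A gene with equal levels in both diets therefore comes out lower on that scale.

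At Pd7 the picture differed. Relative to growing oocyte markers, Aurkc (1.05), Mos (0.79), Fbxo43 (0.61) and Wee2 (0.44) were higher in F1-HHcy without overlap. Gpr3 (0.40) and Cdc25b (0.01) overlapped, and at Pd21 all 6 overlapped. The mean log2 level of the growing oocyte markers was itself 7.55 in F1-Control and 7.32 in F1-HHcy at Pd7. A gene with equal levels in both diets therefore comes out higher on that scale at Pd7. The log2 fold change of Wee2 itself at Pd7 was 0.21, with overlap. Relative to primordial oocyte markers, all members except Cdc25b at Pd3 were higher in F1-HHcy without overlap at Pd3 and Pd7, from 0.69 for Gpr3 to 2.74 for Mos at Pd3 and from 1.22 for Cdc25b to 2.27 for Aurkc at Pd7. Without F1-HHcy Pd3 replicate 3 the values at Pd3 ran from 0.71 for Cdc25b, then also without overlap, to 3.60 for Mos. That library had been set apart by these same markers, so values relative to them without it were partly fixed by that choice. The mean log2 level of the primordial oocyte markers was itself 5.71 in F1-Control and 4.87 in F1-HHcy at Pd3. At Pd7 it was 4.99 in F1-Control and 3.54 in F1-HHcy. A gene with equal levels in both diets therefore comes out higher relative to this list. The share of all genes without overlap relative to either list is not given here. The 2 marker lists themselves moved in opposite directions at Pd3, so the direction of Wee2, Fbxo43, Gpr3 and Cdc25b depended on the list they were set against. For Cdc25b the value relative to primordial oocyte markers was 0.47, with overlap.

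**Figure D3:**
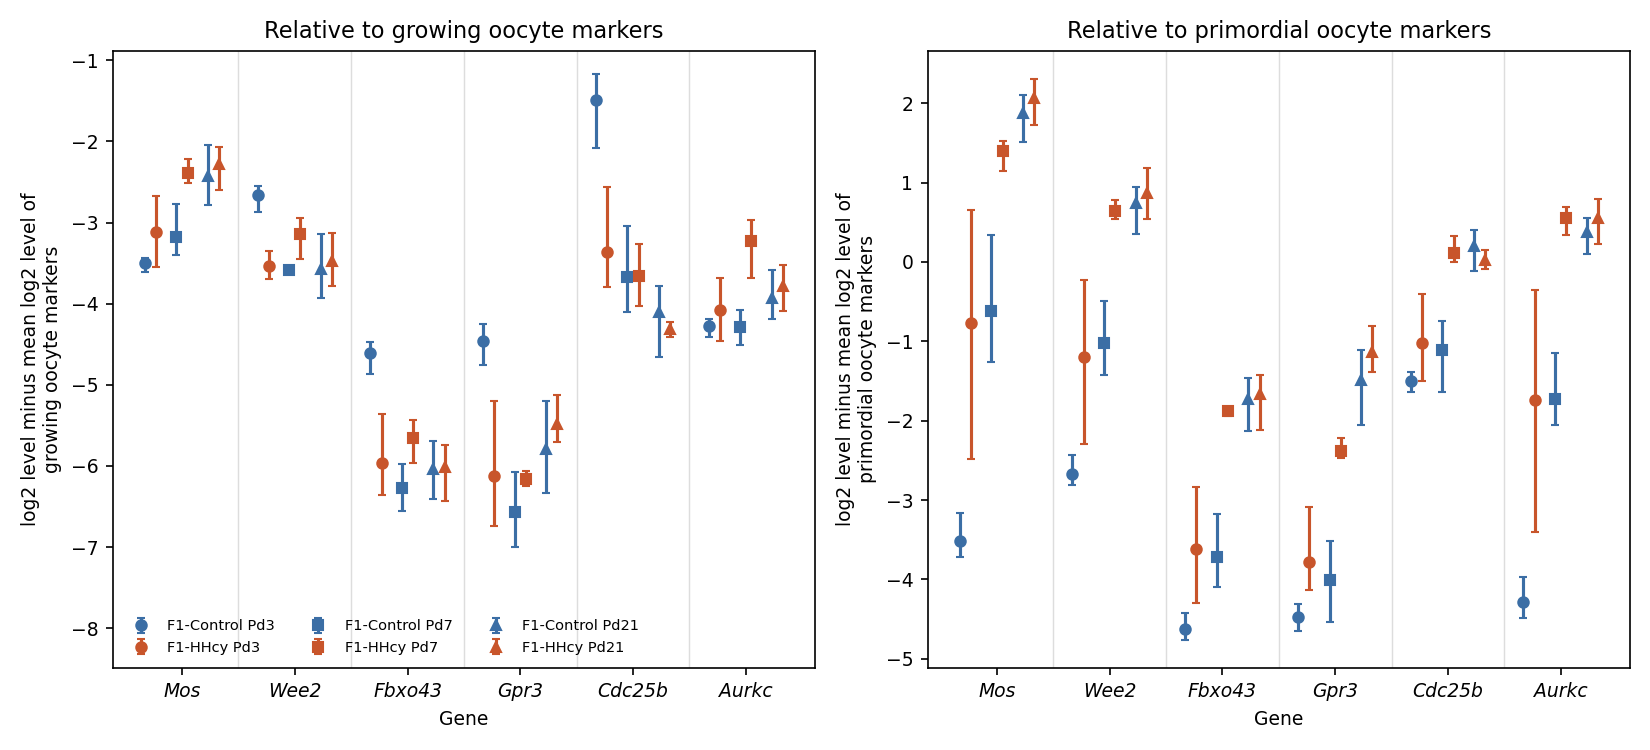
Log2 level of each of the 6 genes minus the mean log2 level of 8 growing oocyte markers (left) or 6 primordial oocyte markers (right), by diet (colour) and day (symbol); points are means and bars run from the lowest to the highest of 3 libraries. At Pd3 Mos and Aurkc overlap between diets on the left through F1-HHcy replicate 3. Cdc25b at Pd3 lies 1.88 lower in F1-HHcy on the left and 0.47 higher, with overlap, on the right.

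Each member except Mos was set beside its paralogs. Of the 9 paralogs, 7 were tested on each day, and the gene called was Pkmyt1, the membrane-bound CDK1-inhibiting kinase. It was lower at Pd3 (14.4, 14.3 and 15.5 FPKM in F1-Control, 9.31, 11.2 and 6.10 in F1-HHcy), at -0.70 on the log2 scale (SE 0.20, adjusted p = 0.0963). Without F1-HHcy replicate 3 it was at -0.48 (adjusted p = 0.0262 from limma) and was not called because it lay under the fold threshold. The widely expressed Wee1 had the same mean of 13.5 FPKM in both diets at Pd3, and 13.8 FPKM in F1-Control and 9.39 in F1-HHcy ovaries at Pd7. Its log2 fold change at Pd7 was -0.52, under the threshold, with an adjusted p of 0.0540. The ratio of mean Wee2 to mean Wee1 was 0.540 in F1-Control and 0.898 in F1-HHcy ovaries at Pd3, or 1.01 without F1-HHcy replicate 3. It was 1.08 in F1-Control and 1.83 in F1-HHcy ovaries at Pd7, and 1.68 and 1.90 at Pd21.

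Aurka and Aurkb, the other Aurora kinase genes, were not called on any day. Their log2 fold changes at Pd3 were 0.33 (SE 0.15) and 0.07 (SE 0.21), against 1.71 for Aurkc, and at Pd7 -0.33 and -0.02, against 0.82. At Pd3 without F1-HHcy replicate 3, Aurka was at 0.48 (adjusted p = 0.0210 from limma) and Aurkb at 0.30 (adjusted p = 0.141). Neither was called, and Aurkc was then at 2.22. Mean Aurkc was 0.143 of mean Aurkb in F1-Control at Pd3, 0.683 in F1-HHcy at Pd3, 0.664 in F1-Control at Pd7 and 1.26 in F1-HHcy at Pd7. In the last of these groups Aurkc was above Aurkb in all 3 libraries, and at Pd3 it was so in none of 6.

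Cdc25a had 10.4 FPKM in F1-Control and 10.7 in F1-HHcy ovaries at Pd3, so the ratio of mean Cdc25b to mean Cdc25a was 1.69 and 1.26, and it was 0.860 and 0.789 at Pd21. Cdc25c had 4.99 and 6.41 FPKM at Pd3, with a log2 fold change of 0.28 (adjusted p = 0.447). Fbxo5, which encodes EMI1, had group means of 13.2 to 19.9 FPKM, and Fbxo43 stayed below it in all 18 libraries. Of the receptors related to Gpr3, Gpr12 was listed at 0 in all F1-Control libraries at Pd3 and Pd7, had at most 4 fragments in an F1-HHcy library of those days and had 7 to 14 fragments per library at Pd21, and Gpr6 had at most 2 fragments in any library. Gpr3 had 57 or more fragments in every library.

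**Figure D4:**
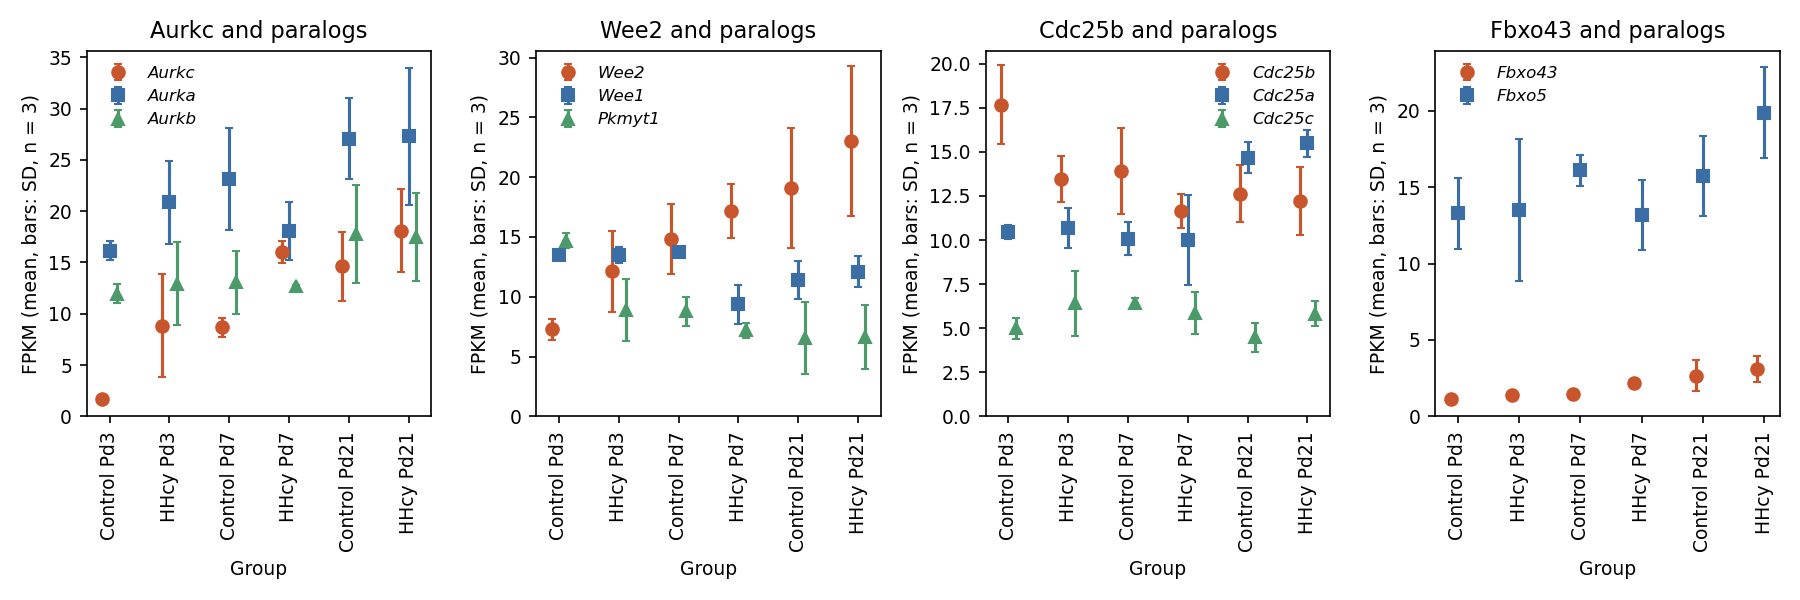
Mean FPKM (y axes from 0; bars are the SD, n = 3 libraries) of Aurkc, Wee2, Cdc25b and Fbxo43 and of their paralogs in the 6 groups (x axes). Aurkc lies at 0.143 of Aurkb in F1-Control at Pd3 and at 1.26 of it in F1-HHcy at Pd7, and Fbxo43 lies below Fbxo5 in every group.

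Other genes of the same pathways were counted from lists of known components, which were chosen with earlier results of these data known. Of 12 genes of the cyclic AMP and protein kinase A arm, 9 were tested, and 1 was called higher at Pd3 and 2 at Pd7, with none lower. Prkar2b, a regulatory subunit of protein kinase A, had 22.6, 20.2 and 22.3 FPKM in F1-Control and 90.2, 44.5 and 30.9 in F1-HHcy ovaries at Pd3, which is 1.17 as log2 fold change (adjusted p = 0.104), and its log2 fold change at Pd7 was 1.62 (SE 0.25, adjusted p = 0.00642). Adcy9, an adenylyl cyclase, was at 0.81 (adjusted p = 0.0291) at Pd7. The catalytic subunit gene Prkaca was at -0.35 (adjusted p = 0.103) at Pd3 and not called, and Gnas, the most abundant gene of the arm at 109.7 FPKM over the 18 libraries, was not called. The median log2 fold change of the arm was 0.14 at Pd3 and -0.02 at Pd7.

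Of 14 genes of the CDK1 switch, 13 were tested, and Pkmyt1 at Pd3 was the one called. With F1-HHcy replicate 3 left out, Pkmyt1 was at -0.48 at Pd3 (adjusted p = 0.0262), under the fold threshold and not called. Ccnb1 (0.86, adjusted p = 0.00381) and Mastl (0.70, adjusted p = 0.0121) were then called higher and Cdc14b (-0.74, adjusted p = 0.0102) lower. Ccnb1, which encodes cyclin B1 and was the most abundant at 52.4 FPKM, was not called with all libraries, and neither were Cdc14b (-0.54 at Pd3, adjusted p = 0.162) and Cdk1 (-0.46 at Pd7, adjusted p = 0.0699). Of 17 genes of the anaphase-promoting complex and spindle checkpoint, all tested, Bub1b was called higher at Pd3 (0.68, SE 0.27, adjusted p = 0.196), with overlap of the groups. It was at 0.96 without F1-HHcy replicate 3 (adjusted p = 0.0108), and Pttg1, which encodes securin, was then also called higher (0.582, adjusted p = 0.00909). Cdc20, an activator of the complex, was at 0.42 at Pd3 (adjusted p = 0.109) and not called, and Anapc5, a subunit and the most abundant at 111.7 FPKM, was not called.

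None of the 7 genes of the MAP kinase arm below MOS was called on any day, nor at Pd3 without F1-HHcy replicate 3. The smallest p-values were those of Rps6ka1 at Pd3 (-0.38, adjusted p = 0.110) and of Map2k2, a MAP kinase kinase, at Pd3 (-0.36, adjusted p = 0.141) and Pd7 (-0.48, adjusted p = 0.102). Mapk3, the most abundant at 99.8 FPKM, was not called. Of 10 genes of the Aurora kinases and the chromosomal passenger complex found in the files, Birc5, which encodes survivin, was called lower at Pd7 (-0.74, SE 0.15, adjusted p = 0.0153), and Cdca8, which encodes borealin, was at -0.52 at Pd3 with an adjusted p of 0.0453, under the fold threshold. Incenp was at -0.38 at Pd3 (adjusted p = 0.0601). Of all genes tested, 9.74% were called in either direction at Pd3 and 16.4% at Pd7. At Pd21 no gene of these 5 lists was called.

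The 6 genes differed in how closely they followed each other over the 18 libraries, which share groups, batches and depth range, so the correlations of log2 levels are descriptions. Pearson's r was 0.97 between Mos and Aurkc, 0.96 between Mos and Wee2 and 0.94 between Wee2 and Aurkc. It was -0.81 between Mos and Cdc25b and 0.44 between Gpr3 and Aurkc. After the mean of each group was taken away, r was 0.90 between Mos and Aurkc and 0.12 between Gpr3 and Aurkc, and it was 0.79 between Gpr3 and Fbxo43.

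Among the 14607 genes tested over all libraries, the pattern most like that of Mos was the pattern of Klf17 (r = 0.994), a zinc finger factor gene, ahead of Gm1965 (0.992) and Kpna7 (0.992), which encodes an importin of oocytes. For Aurkc the nearest were Accsl (0.993), the oocyte homeobox gene Obox5 (0.993) and E330011O21Rik (0.991). For Wee2 they were Oas1d (0.978), H1f8 (0.971), which encodes the oocyte linker histone, and Rab38 (0.970). Fbxo43 was most like Pde6b (0.978), Cmya5 (0.973) and Gm14635 (0.968), and Gpr3 most like Lbx1 (0.951), Pou4f1 (0.951) and Gspt2 (0.949). The nearest genes to Cdc25b were Rasd2 (0.896), Car2 (0.889), which encodes a carbonic anhydrase, and AI662270 (0.885), so its closest match lay lower than that of any other member.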

How the data were processed

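Total RNA of whole ovaries was made into stranded libraries by poly-T capture, so polyadenylated RNA alone was measured. The authors deposited values normalized to gene length and library depth, read here as FPKM since no unit is named. A single length for each gene gave whole fragments (within 0.05) in 99.989% of 27294 genes present in 3 or more libraries. Per the labels, the submitters' processing notes name FastQC 0.11.9, Trimmomatic 0.39, STAR 2.7.9a, featureCounts 2.0.1 and DESeq2 1.36.0 and the build GRCm38 (mm10). Which annotation was counted is not given in the sources used here.

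For each day, log2(FPKM + 1) was fitted by diet using limma 3.58.1 (R 4.3.3), whose prior variance followed the mean, after a filter of 1 FPKM in 3 or more libraries. The call required a log2 fold change past 0.58 together with an unadjusted p below 0.05. Days and interactions were tested in 1 model of 6 groups over 18 libraries. The fits were tested on simulated data. Python 3.11.15 with pandas 2.3.3 and numpy 2.4.6 made the tables, and matplotlib 3.10.9 drew the figures. Tests of levels relative to oocyte markers had been planned but were not used, because subtracting 1 marker mean from all genes gives them a shared error, and those levels are given without a test. The 6 genes and all gene lists were chosen with earlier results of these data known. Named beside the members were all paralogs, in each pathway list the most abundant gene and the 2 with the smallest p on a day, called list genes, Ddx4, Sohlh1, Gdf9 and Zp3, and the 3 genes most correlated with each member, and the text gives a part of these. Groups followed the labels, and no library was left out. Alternatives were a pseudocount of 0.1, no filter, median-ratio scaling, an adjusted p under 0.05, a replicate block, leaving out mitochondrial and hemoglobin genes, limma-voom on recovered fragments, 1 model of all libraries for diet, and each library left out in turn.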

Additional observations from a re-analysis of the deposited data

How the results depend on the processing

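The count of the 6 genes called between diets at Pd3 was 3 and became 0 with an adjusted p under 0.05 in place of the unadjusted p. At Pd7 it was 1 and became 2 with limma-voom on recovered fragments, which also called Fbxo43. From Pd7 to Pd21 in F1-HHcy the count was 2 and became 1 with the adjusted p, without a filter on low values and with the replicate block. From Pd3 to Pd7 in F1-HHcy it was 2 and became 0 with the adjusted p and 1 without a filter. The difference of Cdc25b between diets at Pd21 turned from -0.05 to 0.0062 under median-ratio scaling, and the cause was not tested. The replicate numbers did not pair the libraries, since deviations of equally numbered libraries correlated at -0.31 to 0.085, and the replicate block, which also lowered the count from Pd7 to Pd21 in F1-Control from 3 to 2, changed no other count of calls. Over all genes tested between diets, those with an adjusted p under 0.05 numbered 408, 1577 and 298 on Pd3, Pd7 and Pd21 in turn, and 0, 91 and 37 without a filter. With the replicate block they numbered 1 at Pd3. With single libraries left out they ran from 0 to 2824, from 493 to 1845 and from 1 to 185. Aurkc from Pd7 to Pd21 in F1-Control (0.67) was also not called under the adjusted p, median-ratio scaling (0.65), no filter, a pseudocount of 0.1 (0.73) or the replicate block. Fbxo43 over these days in F1-Control (0.55) was called with the pseudocount of 0.1 (0.78) and with limma-voom (0.81). Of the values of single genes recomputed with no library left out, 364 kept their direction and their side of the threshold, 14 lost the call, 5 gained it and 1 changed sign.

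With single libraries left out, the counts ran from 2 to 3 between diets at Pd3, from 1 to 2 at Pd7 and from 3 to 3 from Pd3 to Pd7 in F1-Control, from 0 to 3 from Pd3 to Pd7 in F1-HHcy, from 1 to 4 and 1 to 2 from Pd7 to Pd21 in F1-Control and F1-HHcy, and from 0 to 2 for interactions between Pd3 and Pd7. Values that changed sign were the changes from Pd7 to Pd21 of Cdc25b in F1-Control (-0.22 to 0.0035) and F1-HHcy (-0.026 to 0.18) and of Aurkc in F1-HHcy (-0.010 to 0.29), and the change of Gpr3 from Pd3 to Pd7 in F1-HHcy (-0.095 to 0.20). The same held between diets at Pd21 for Fbxo43 (-0.047 to 0.37) and Cdc25b (-0.15 to 0.075), and for the interactions between Pd7 and Pd21 of Mos (-0.51 to 0.024), Wee2 (-0.17 to 0.22) and Gpr3 (-0.0175 to 0.52). None of these was a called value. The alternatives of the fits relative to oocyte markers were not run, as those fits were not used.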
